A study of Mus musculus with 2 samples.

Results

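The transcripts of cyclins, cyclin-dependent kinases (CDKs) and CDK inhibitors were examined in 3D cultures of mouse mammary basal cells. The members were defined by a rule on gene names, as every gene named Ccn with a letter and a number (or a letter up to l alone), Cdk with a number, or Cdkn1, Cdkn2 or Cdkn3 with or without a letter, together with Ccnb1ip1. This gave 50 of the 49492 genes listed. Basal cells were sorted by FACS from adult wild-type female mammary glands and grown in matrix gel for 10 days, either untreated (control) or with recombinant mouse TNF-α at 10 ng/mL. The medium of both cultures contained EGF and the ITS supplement, as given in the study's methods. TNF-α is an inflammatory cytokine, and the study asked how it acts on the growth of these colonies and organoids. Bulk RNA-seq gave 1 library for each condition. No difference therefore has a replicate check, and the conditions could not be tested against each other. The libraries held 44462275 and 53487087 counts.

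Cyclins are the regulatory partners of CDKs, and most of them are made and destroyed at set points of the cell cycle. D-type cyclins with Cdk4 and Cdk6 carry growth signals into G1, E-type and A-type cyclins with Cdk2 drive entry into and passage through S phase, and B-type cyclins with Cdk1 drive mitosis. Inhibitors of the INK4 class bind Cdk4 and Cdk6, and those of the Cip/Kip class bind cyclin-CDK complexes more broadly. Other members, among them Cdk8, Cdk9 and Cdk12 with cyclins C, T and K, act on transcription by RNA polymerase II, and Cdk7 with cyclin H serves both the cycle and transcription. In mammary epithelium, cyclin D1 is known as a growth-controlling cyclin of the gland.

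Of the 50 members, 48 had at least 10 counts summed over both libraries and were compared. Ccnb3 and Ccnb1ip1 had 0 counts in both libraries, which allows up to 3 counts, or 0.0673 CPM (counts scaled to the TMM-adjusted library size) in the control and 0.0562 CPM with TNF-α. Counts were scaled by the TMM method, a prior count of 2 was added, and the TNF-α value over the control value was taken as a log2 ratio. A member was called higher or lower when it passed 2-fold. By this rule 6 of the 48 members (12.5%) were called higher with TNF-α, against 8.56% of the 20771 genes compared, and 2 (4.17%) were called lower, against 6.62%. Among genes with at least 200 counts, 5 of 44 members (11.4%) were higher, against 4.01% of all such genes, and 1 (2.27%) was lower, against 2.87%. The members called higher were Cdkn2a, Cdk1, Ccnb1, Cdk6, Cdkn3 and Ccnd2, and those called lower were Cdk18 and Ccna1. Of the latter, Ccna1 rested on 9 and 4 counts.

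With the lower threshold of 1.5-fold, 11 of the 48 members (22.9%) were higher, against 15.5% of all genes compared, and 3 (6.25%) were lower, against 13.7%. Among genes with at least 200 counts these shares were 22.7% of the members against 9.13%, and 2.27% against 7.48%. The 5 members that lay between 1.5-fold and 2-fold higher were Ccnb2, Ccne1, Ccnf, Cdkn2c and Ccne2. The member nearest to the 2-fold line from above was Ccnd2, with a log2 ratio of 1.06, and from below Ccnb2, with 0.98. The median of all 48 members was a log2 ratio of 0.07, and that of all genes compared was 0.0038. The role groups did not share this level. The 13 compared cyclins and kinases of the cell cycle engine (D, E, A and B types with Cdk1, Cdk2, Cdk4 and Cdk6) had a median of 0.65, and the 12 transcription cyclins and kinases had a median of -0.04. Counting intervals (95% Clopper-Pearson, turned into a log2 ratio) lay wholly above 0 for 23 of the 48 members (47.9%), against 28.9% of all genes compared, and wholly below 0 for 13 (27.1%), against 27.8%. With counts divided by 2, as would suit read ends counted singly, these were 21 members (43.8%) against 22.7%, and 10 (20.8%) against 22%. The share below 0 was near that of all genes. Of the members 28 (58.3%) had a log2 ratio above 0 at all, against 50.6% of all genes. No correction for duplicate reads was made here. These intervals hold the counting error of the deposited counts alone and leave out the spread between cultures.

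**Figure D1:**
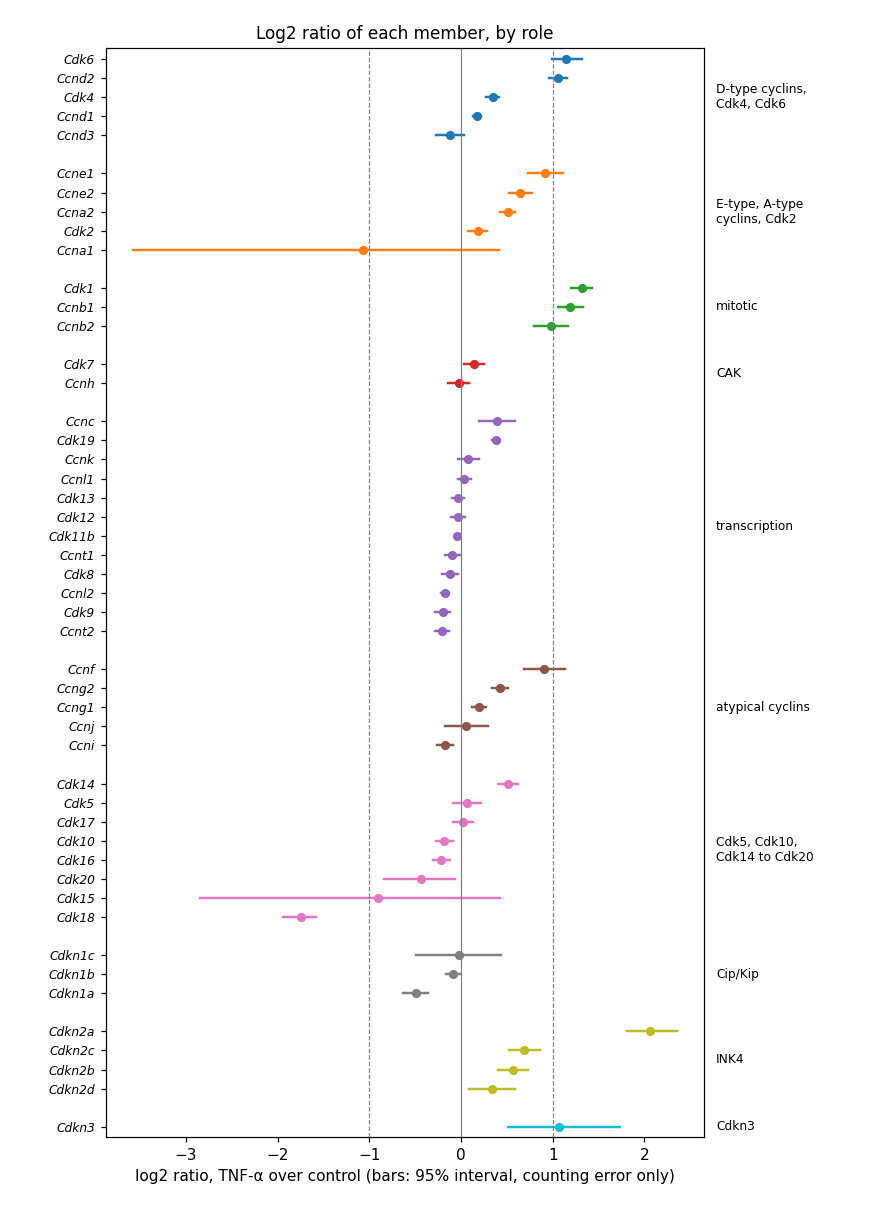
Log2 ratio of TNF-α to control (x axis) for the 48 compared members (y axis), grouped and coloured by role, with 95% intervals for counting error as bars and dashed lines at 2-fold. All 3 compared mitotic members sit near or above the upper dashed line, the 12 transcription members lie between -0.21 and 0.39, and the widest bars belong to Ccna1 and Cdk15.

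All 3 compared genes of the mitotic group passed 1.5-fold upward with TNF-α. Cdk1, Ccnb1 and Ccnb2 had log2 ratios between 0.98 and 1.32, with a median of 1.19. Cdk1, the kinase that drives entry into mitosis, lies at chr10:69336635-69352938 of GRCm38 and had 837 counts in the control and 2497 with TNF-α. Its level in TPM, a transcript share scaled for exon length, was 15.4 in the control and 37.1 with TNF-α. The fold was 2.49, the second highest among the members after Cdkn2a. Ccnb1, encoding cyclin B1, had 612 and 1675 counts (9.19 and 20.3 TPM) and a log2 ratio of 1.19, with an interval from 1.06 to 1.33. Ccnb2, encoding cyclin B2, lies at chr9:70407692-70421547 and had 355 and 838 counts. Its level was 14.7 TPM in the control and 28.0 TPM with TNF-α, a log2 ratio of 0.98 (interval 0.80 to 1.16). Both B-type cyclins were thus near the 2-fold line, and Ccnb2 had the higher level per length of the pair in both libraries, though fewer counts. The ratio of Ccnb1 to Cdk1 in TPM was 0.597 in the control and 0.548 with TNF-α, so that the kinase and cyclin B1 differed by about the same factor. Ccnb3, a B-type cyclin best known from germ cells, was at 0 counts in both.

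The sequences before the start site are shown for Cdk1, Ccnb1 and Ccnb2, and for Cdkn3 of another role group. Promoters of mitotic genes are known for CCAAT boxes and for the CHR element that MuvB complexes read. Ccnb3, with 0 counts in both libraries, is not shown. The stretches come from RefSeq on GRCm38.p6, run 5′ to 3′ on the gene's strand and stop before the start of the gene in both RefSeq and the deposited table. Capitals mark the CCAAT box, the CHR letters TTTGAA and the E2F letters TTTCGCGC, each on either strand. Cdk1 is shown from chr10:69352939-69353088 (minus strand), Ccnb1 from chr13:100786571-100786720 (minus strand), Ccnb2 from chr9:70421555-70421704 (minus strand) and Cdkn3 from chr14:46760391-46760540 (plus strand).
Cdk1: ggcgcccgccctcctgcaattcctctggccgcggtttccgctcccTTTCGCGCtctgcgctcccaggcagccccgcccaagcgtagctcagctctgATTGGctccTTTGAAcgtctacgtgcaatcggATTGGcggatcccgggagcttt
Ccnb1: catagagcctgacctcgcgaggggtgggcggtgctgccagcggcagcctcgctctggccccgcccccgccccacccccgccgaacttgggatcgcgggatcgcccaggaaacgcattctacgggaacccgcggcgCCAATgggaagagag
Ccnb2: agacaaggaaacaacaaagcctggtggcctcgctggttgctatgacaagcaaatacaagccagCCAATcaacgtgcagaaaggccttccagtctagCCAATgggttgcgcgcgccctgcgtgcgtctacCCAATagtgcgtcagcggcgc
Cdkn3: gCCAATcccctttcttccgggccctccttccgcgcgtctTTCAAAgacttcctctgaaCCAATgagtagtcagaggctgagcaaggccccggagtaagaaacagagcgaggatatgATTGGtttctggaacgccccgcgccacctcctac

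In these stretches Cdk1 has TTTGAA between a pair of CCAAT boxes and an E2F element further upstream, and Ccnb2 and Cdkn3 each have 3 CCAAT boxes. The search covered 250 bases before to 50 bases after the RefSeq start on both strands. In that window Ccnb2 also holds TTTGAA at positions -167 and 5 from the start, and Cdk1 holds it at -15. Further CCAAT boxes lie at -208 in Cdk1, -67 in Ccnb1 and 10 in Cdkn3. Ccnb1 holds no TTTGAA but the variant TTTAAA at position -42. Ccnb3 also holds TTTAAA, without TTTGAA or a CCAAT box. The letters TTTAAA were added after the sequences were seen and were found in 13.2% of all windows and 13% of the members' windows. Of the 41 members with a promoter in the RefSeq table (46 windows), 7 held TTTGAA, in 15.2% of the windows, against 17.9% of all 32851 windows. CCAAT was found in 47.8% of the members' windows and 37.4% of all. Among the 9 members with a window that were more than 1.5-fold higher, 4 held TTTGAA (Cdk1, Ccnb2, Ccnf and Cdkn3) and 7 held CCAAT. Of the 32 other members, 3 held TTTGAA and 15 held CCAAT. These include Ccnb3 and Ccnb1ip1, which had 0 counts and were not compared. Of all 27025 genes with a window, 5466 held TTTGAA and 11096 held CCAAT. TTTGGCGC or TTTCGCGC was found in 1 member, Cdk1, and in 0.813% of all windows. The NF-κB consensus, matched by its usual degenerate letters, was found in 1 member, Cdkn2d, and in 4.51% of all windows. None of these letters overlaps another in the printed stretches, and a match is a description of the window and not a bound site.

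Among the D-type cyclins and their kinases, Cdk6 and Ccnd2 were called higher with TNF-α and the other 3 lay under 1.5-fold. Ccnd1, encoding cyclin D1, was the most abundant cyclin per length in both libraries, with 9132 and 12337 counts and 122.8 and 134.2 TPM. Its log2 ratio was 0.17 (interval 0.14 to 0.21), so that it lay higher with TNF-α beyond counting error but far under 2-fold. Ccnd2, encoding cyclin D2, had 1167 and 2908 counts (7.85 and 15.8 TPM). The log2 ratio of Ccnd2 was 1.06, with an interval from 0.96 to 1.16 that spans the 2-fold line. Ccnd3 had 667 and 735 counts and a log2 ratio of -0.12, with an interval from -0.27 to 0.03 that includes 0. The share of cyclin D2 among D-type cyclin transcripts was therefore 5.8% in the control and 10.3% with TNF-α, while cyclin D1 made up 90.6% and 87.0%.

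Of the kinases of these cyclins, the less abundant one differed more. Cdk4 had 2389 and 3629 counts (46.6 and 57.2 TPM), a log2 ratio of 0.34 (interval 0.27 to 0.42). Cdk6, on chromosome 5 from 3341485 to 3531008, had 426 and 1133 counts and a log2 ratio of 1.15 (interval 0.99 to 1.32). Cdk6 remained the minor kinase, at 1.93 TPM in the control and 4.15 TPM with TNF-α. It made up 3.98% of the summed level of both kinases in the control and 6.76% with TNF-α. Exons of Ccnd2 and Cdk6 overlap sparsely counted genes on the opposite strand, whose highest count was 49. Those of Ccnd1, Ccnd3 and Cdk4 overlap better counted ones, Oraov1, Bysl and Tspan31, with log2 ratios of 0.11, 0.26 and 0.27.

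In the E-type and A-type group no member was called higher at 2-fold, and Ccne1 and Ccne2 lay between 1.5-fold and 2-fold. The intervals of 4 of the 5 members lay above 0. Ccne1 had 330 and 749 counts (7.85 and 14.4 TPM), a log2 ratio of 0.92 (interval 0.73 to 1.11). Ccne2 had 796 and 1493 counts (14.4 and 21.9 TPM), a log2 ratio of 0.65 (interval 0.52 to 0.77). Together these cyclins, which carry cells from G1 into S phase, summed to 22.3 TPM in the control and 36.3 TPM with TNF-α, a ratio of 1.63. Ccna2, the cyclin A of dividing somatic cells, had 1988 and 3388 counts (30.8 and 42.5 TPM), a log2 ratio of 0.51 (interval 0.43 to 0.59). The kinase Cdk2 differed least of these 4, with 1295 and 1758 counts, 33.7 and 37.0 TPM, and a log2 ratio of 0.18 (interval 0.08 to 0.29). Exons of Ccne2 and Ccna2 overlap Ints8 and Exosc9 on the opposite strand, with log2 ratios of 0.16 and 0.15. Ccna1, a cyclin A best known from the testis, had 9 and 4 counts, and its interval of -3.58 to 0.41 includes 0.

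Cdk2 had the higher level per length of the pair in the control, and with TNF-α both kinases were level. Cdk1 made up 31.3% of the summed level of Cdk1 and Cdk2 in the control and 50.1% with TNF-α. Among A-type and B-type cyclins, Ccna2 made up 56.0% of the summed level in the control and 46.7% with TNF-α, Ccnb1 16.7% and 22.4%, and Ccnb2 26.7% and 30.8%. Across the cycle, the log2 ratios of the leading cyclins were 0.17 for Ccnd1, 0.65 for Ccne2, 0.51 for Ccna2 and 0.98 for Ccnb2. Ccna2 lay below Ccne2, so these values did not rise from class to class. The less abundant members had 1.06 for Ccnd2, -0.12 for Ccnd3, 0.92 for Ccne1 and 1.19 for Ccnb1. Ccna1 was too sparsely counted to place. In bulk RNA a larger share of cells in a phase and more transcript per cell cannot be told apart.

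**Figure D2:**
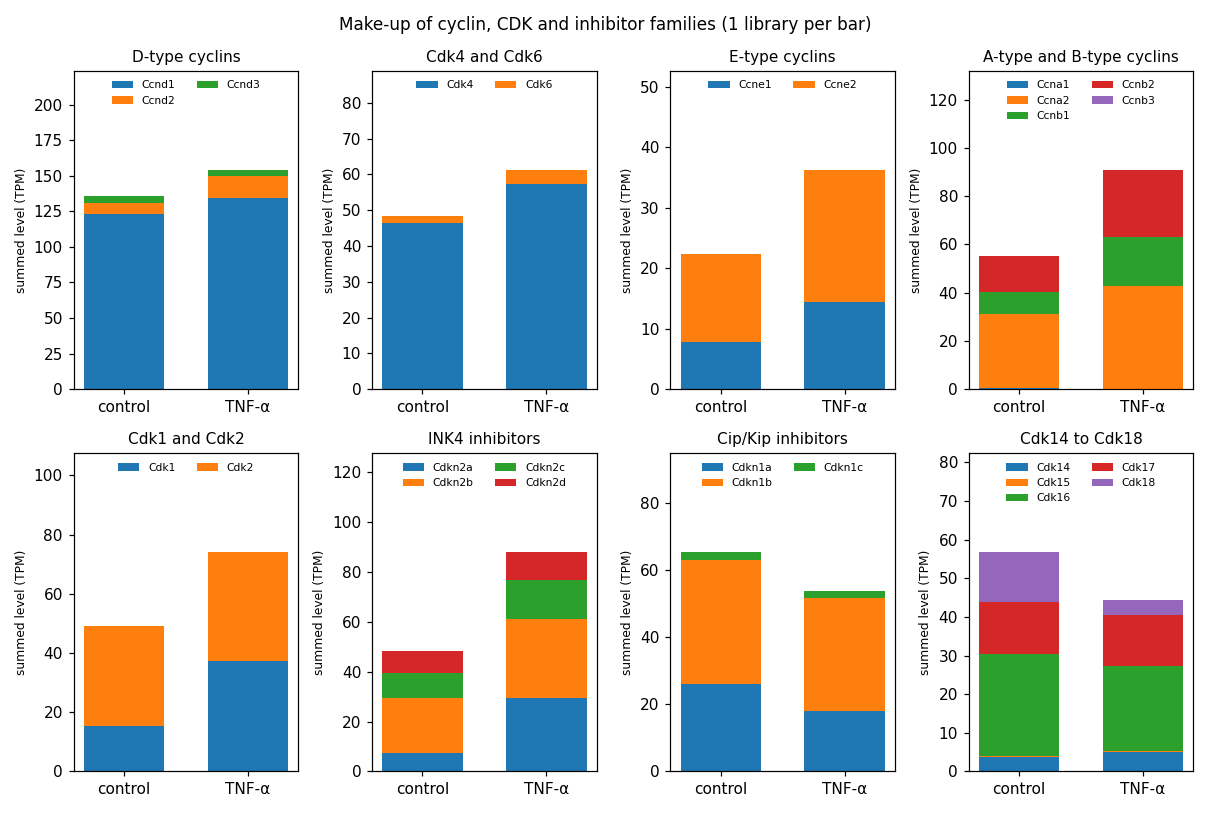
Summed transcript level in TPM (y axis, from 0) of 8 families in the control and TNF-α libraries (x axis, 1 library per bar), stacked by gene. Cdk1 and Cdk2 are equal in height with TNF-α, Cdkn2a makes up 14.96% and 33.6% of the INK4 bars, and the Cip/Kip bar is lower with TNF-α (53.8 against 65.4 TPM).

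Of the inhibitors of both classes, Cdkn2a alone passed 2-fold, and Cdkn2c was more than 1.5-fold higher. No Cip/Kip gene passed 1.5-fold in either direction. Cdkn2a had the highest log2 ratio of all members. It lies at chr4:89274471-89294653 and had 134 counts in the control and 676 with TNF-α (7.24 and 29.5 TPM). The log2 ratio of Cdkn2a was 2.06 (interval 1.81 to 2.35), a fold of 4.17, at rank 512 of the 20771 genes compared. This gene encodes a pair of unrelated proteins from separate first exons, the INK4 inhibitor p16 and the p53 activator Arf. RefSeq starts lie at 89282192 and 89294619, and the gene-level count adds the transcripts of both.

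The neighbouring gene Cdkn2b, encoding the INK4 inhibitor p15, had 484 and 860 counts (22.0 and 31.6 TPM), a log2 ratio of 0.57 (interval 0.41 to 0.73). Cdkn2c, encoding p18, had 427 and 826 counts and a log2 ratio of 0.69 (interval 0.52 to 0.86). Cdkn2d, encoding p19, was the lowest of the class at 0.34, with 226 and 342 counts and an interval from 0.09 to 0.59 that began at -0.01 with counts divided by 2. The 4 genes summed to 48.4 TPM in the control and 88.1 TPM with TNF-α, a ratio of 1.82, and Cdkn2a accounted for 14.96% and 33.6% of these sums. The level of Cdkn2b was 3.04 times that of Cdkn2a in the control and 1.07 times with TNF-α.

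Of the Cip/Kip genes, Cdkn1a, encoding the p53-inducible inhibitor p21, differed most, with 914 counts in the control and 776 with TNF-α. Its level was 26.03 and 17.88 TPM and its log2 ratio -0.49 (interval -0.64 to -0.36), short of 1.5-fold. Cdkn1b, encoding p27, had 2666 and 2998 counts and a ratio near level at -0.09 on the log2 scale (interval -0.17 to -0.01, or -0.20 to 0.02 with counts divided by 2). Cdkn1b was the most abundant inhibitor in both libraries at 37.1 and 33.7 TPM. Cdkn1c, encoding p57, was sparse, with 74 and 87 counts and an interval from -0.49 to 0.44. Cdkn3 carries an inhibitor's name but encodes a phosphatase that acts on CDKs. It had 33 and 85 counts (2.70 and 5.63 TPM), a log2 ratio of 1.06 with an interval from 0.51 to 1.73, and its 118 counts in all leave the 2-fold line inside the interval.

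The cyclins and kinases that act on transcription were nearly level between the libraries, and 0 of 12 passed 1.5-fold in either direction. Among all genes with at least 200 counts, which each of the 12 had, 9.13% were more than 1.5-fold higher and 7.48% lower. Small differences remained beyond counting error, with the intervals of 2 wholly above 0 and of 6 wholly below. Their log2 ratios ran from -0.21 for Ccnt2 to 0.39 for Ccnc, with 4 above 0 and 8 below. Ccnt2 and Cdk9, of the elongation kinase P-TEFb, were the lowest, with 2663 and 2758 counts for Ccnt2 and a log2 ratio of -0.20 for Cdk9. Ccnc, of the Mediator kinase module, had 353 and 555 counts and an interval from 0.20 to 0.59. Its kinases differed from each other. Cdk19 had 7818 and 12187 counts (84.7 and 107 TPM) and a log2 ratio of 0.38 (interval 0.34 to 0.42), and its paralogue Cdk8 had 2010 and 2207 counts (12.9 and 11.5 TPM) and a log2 ratio of -0.12 (interval -0.21 to -0.04). The level of Cdk19 was 6.54 times that of Cdk8 in the control and 9.29 times with TNF-α. Exons of Cdk19 overlap the antisense gene Cdk19os, which had 3130 and 4655 counts, and whether counting used the strand is not given in the sources used here.

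The pair Cdk12 and Cdk13, kinases of the elongating polymerase that share cyclin K, had log2 ratios of -0.03 each, and their cyclin Ccnk had 0.08. Cdk11b, a kinase linked to splicing, had the most counts of all members, 25612 and 29823, and a log2 ratio of -0.04 (interval -0.06 to -0.02). At 432 and 407 TPM it made up more than any other member of the summed level of 1475 and 1577 TPM for all 50. Its cyclin partners Ccnl1 and Ccnl2 had log2 ratios of 0.04 and -0.17. Exons of Ccnh and Cdk7 overlap Rasa1 and Ccdc125 on the opposite strand, with more counts than either member. The CDK-activating kinase, which phosphorylates the cell cycle CDKs and also serves transcription factor TFIIH, was as level: Ccnh had a log2 ratio of -0.03, with an interval from -0.14 to 0.09 that includes 0, and Cdk7 one of 0.14 (interval 0.03 to 0.25). With counts divided by 2 the interval of Cdk7 began at -0.02.

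Among the atypical cyclins Ccnf stood out. Ccnf encodes cyclin F, the F-box subunit of an SCF ubiquitin ligase that is active in G2, and it had 248 and 558 counts (5.07 and 9.22 TPM), a log2 ratio of 0.91 (interval 0.69 to 1.13). Ccng1, a p53 target, had 2586 and 3550 counts and a log2 ratio of 0.20 (interval 0.12 to 0.27). Ccng2, a cyclin linked to growth arrest, had 1693 and 2721 counts and a log2 ratio of 0.42 (interval 0.34 to 0.51). Ccnj was level within counting error at 0.06, and Ccni was the lowest of the group at -0.18, with 2237 and 2369 counts.

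The kinases outside the cell cycle and transcription groups held the member that was lowest with TNF-α. Cdk18, a PCTAIRE kinase at chr1:132112237-132139684, had 972 counts in the control and 344 with TNF-α (12.9 and 3.70 TPM). The log2 ratio of Cdk18 was -1.75 (interval -1.94 to -1.58), and it was the one member with at least 200 counts that was more than 1.5-fold lower. A gene on the opposite strand that overlaps its exons, Gm29629, had 149 and 53 counts, a log2 ratio of -1.71. The other PCTAIRE kinases differed little, with log2 ratios of -0.21 for Cdk16 and 0.02 for Cdk17. Cdk18 therefore made up 22.7% of the summed level of Cdk14 to Cdk18 in the control and 8.35% with TNF-α. Cdk14, a kinase paired with cyclin Y at the membrane, went the other way, with 1089 and 1864 counts and a log2 ratio of 0.51 (interval 0.41 to 0.62). Cdk5, Cdk10 and Cdk20 had log2 ratios of 0.06, -0.18 and -0.44, and Cdk15 had 11 and 6 counts, too few to separate its ratio from 0.

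**Figure D3:**
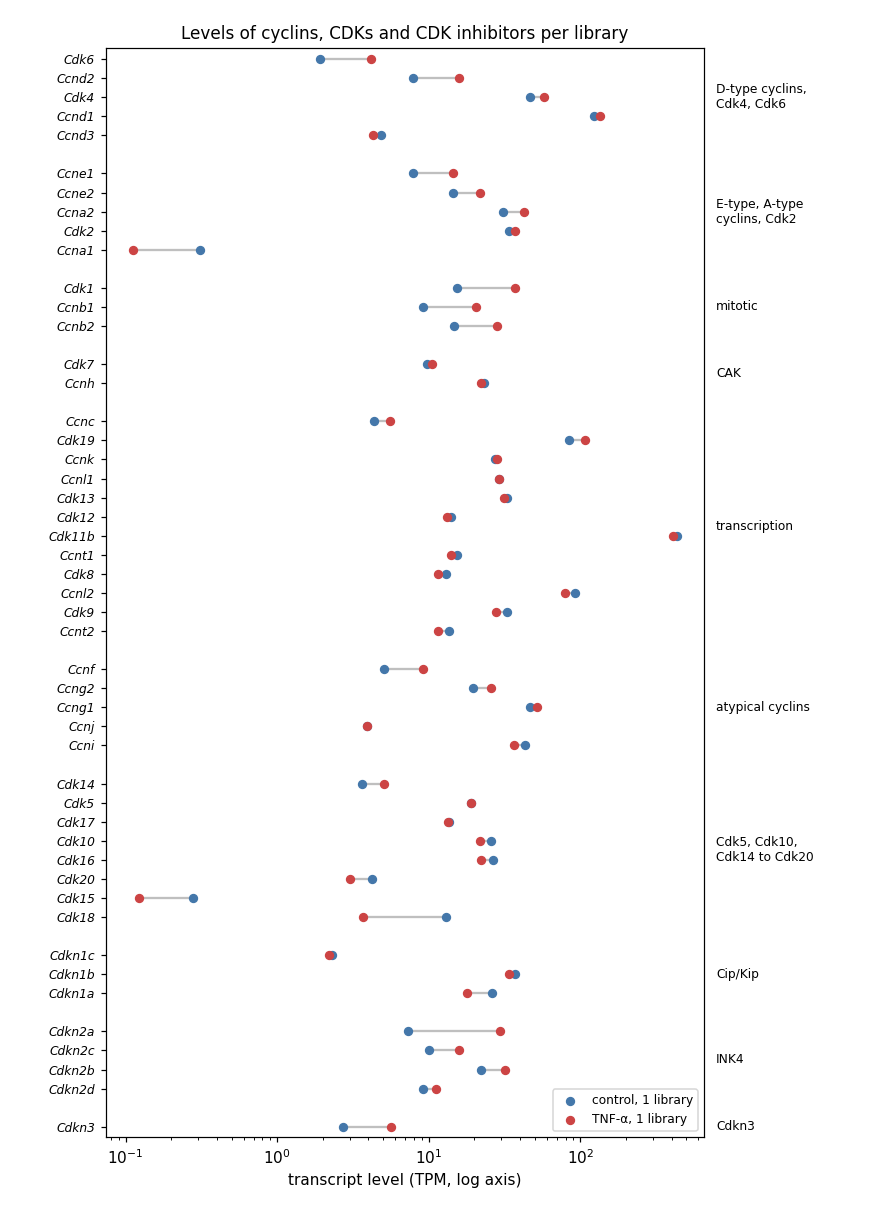
Transcript level in TPM (x axis, log scale) of the 48 compared members in the control library (blue) and the TNF-α library (red), grouped by role. The levels span from under 1 TPM for Ccna1 and Cdk15 to 407 TPM and more for Cdk11b, and the widest gaps among well counted members are those of Cdkn2a and Cdk18.

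Genes that act on cyclins and CDKs but fall outside the naming rule were described from lists chosen by function. Of 13 compared kinases, phosphatases and subunits that act on CDKs, 3 were more than 1.5-fold higher and 1 lower, and 0 passed 2-fold. Of all genes compared, 15.5% were more than 1.5-fold higher and 13.7% lower, and 8.56% and 6.62% passed 2-fold. The 3 were Cks1b, with 133 and 303 counts and a log2 ratio of 0.92, the phosphatase Cdc25c, also at 0.92, and Cks2 at 0.72. Both Cks proteins bind CDKs as small accessory subunits, and Cdc25c removes the inhibitory phosphates from Cdk1. Cdc25c had 126 and 287 counts. The better counted paralogues Cdc25a (814 and 1124) and Cdc25b (555 and 717) lay under 1.5-fold, at 0.21 and 0.11. The counting interval of Cdc25b, -0.05 to 0.27, included 0. Wee1 and Pkmyt1, the kinases that place the inhibitory phosphates of Cdk1, lay at -0.10 and -0.25. For Wee1 the counting interval included 0 (-0.25 to 0.05), and for Pkmyt1 it lay below 0 (-0.42 to -0.10). The lowest was Cdk5r1, an activator of Cdk5, with 87 and 62 counts and a log2 ratio of -0.73.

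In the list of 21 genes for degradation of cyclins and inhibitors, 2 were more than 2-fold higher and 0 lower, a share close to the 8.56% of all genes compared. Fbxo5, an inhibitor of the anaphase-promoting complex, had 143 and 449 counts, a log2 ratio of 1.38. Cdc20, the mitotic activator of that complex, had 442 and 1214 counts, a log2 ratio of 1.19. Skp2, which targets p27 for degradation, had 156 and 310 counts and a log2 ratio of 0.72. The subunits of the complex itself lay between -0.26 for Anapc11 and 0.34 for Cdc27. Among 22 regulators of cyclin and CDK transcription, E2f1 alone passed 2-fold upward, against the same 8.56% of all genes compared. E2f1 had 233 and 670 counts and a log2 ratio of 1.26 (interval 1.05 to 1.49), and the list median was 0.39. Mybl2 and Foxm1, which act with MuvB on mitotic genes, had log2 ratios of 0.71 and 0.48. Rb1, encoding the pocket protein that restrains E2F, was the lowest of the list at -0.59, with 1192 and 948 counts. The other pocket protein genes, Rbl1 and Rbl2, had 0.45 and -0.13. Genes E2f2 to E2f6 lay between -0.12 and 0.15, and E2f7 and E2f8 at 0.72 and 0.55. In this list 4 genes were more than 1.5-fold higher and 1 lower, against 15.5% and 13.7% of all genes compared.

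The 15 subunits and inhibitors of transcription CDK complexes ran from -0.42 for Med12l to 0.34 for Ell2, with a median of -0.03. Of these 0 passed 1.5-fold, against 15.5% of all genes compared upward and 13.7% downward. Of 10 compared cyclin-like and CDK-like genes that the naming rule left out, 1 was more than 1.5-fold higher, Ccnyl1 at 0.62 (343 and 632 counts), and the lowest was Cdkl2 at -0.38. All 9 proliferation markers were above 0, from 0.42 for Pcna to 1.14 for Top2a, with a median of 0.87. Of these markers 3 passed 2-fold upward (Top2a, Aurkb and Plk1), against 8.56% of all genes compared. The log2 ratio of Cdk1, 1.32, lay above all 9. The TPM of Cdk1 was 0.247 times that of Top2a in the control and 0.279 times with TNF-α.

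**Figure D4:**
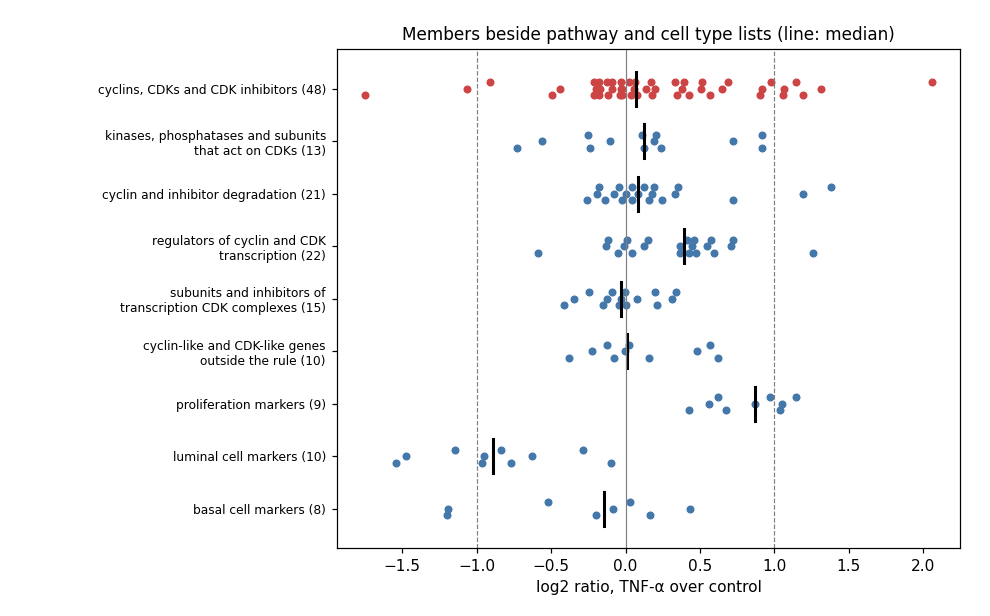
Log2 ratio of TNF-α to control (x axis) for the members (red) and for genes of 8 lists (blue), with the number of genes compared in parentheses, medians as black lines and dashed lines at 2-fold. The proliferation markers centre at 0.87, the members at 0.07 and the luminal markers at -0.89.

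Defining markers of basal and luminal mammary epithelium were both present in these cultures. Keratin 14 (Krt14), a basal keratin, stood at 8276 TPM in the control and 7574 TPM with TNF-α, and the luminal keratin gene Krt8 at 1896 and 1715 TPM. All 6 TNF response genes were higher in the library labelled TNF-α, from 0.68 for Cxcl1 to 5.71 for Ccl2. All 10 luminal markers compared had log2 ratios below 0, with a median of -0.89 and summed levels of 5032 and 3719 TPM. Pgr, Esr1 and Prlr were more than 2-fold lower, and Csn2 was at 0 in both. The 8 basal markers had a median of -0.14 and summed to 14294 and 13188 TPM, with 3 above 0 and 5 below. They ran from Lgr5 and Oxtr at -1.20 and -1.19 to Procr at 0.44, which had 86 and 140 counts. Between these lay Myh11 at -0.52, Acta2 at -0.20, Krt14 at -0.08, Trp63 at 0.03 and Krt5 at 0.16. Leukocyte markers summed to 17.1 and 29.1 TPM, of which Cd14 gave 11.1 and 24.6. The median of the 5 compared was -0.40, with Itgam, Csf1r and Cd68 between -0.56 and -0.40, and Cd3e was at 0 in both libraries. Fibroblast markers summed to 125 and 133 TPM, with log2 ratios from -0.93 for Pdgfrb to 1.39 for Dcn and a median of 0.10, and endothelial markers to 3.33 and 3.24 TPM. The compared luminal markers, 5 of the 8 basal markers and Pdgfrb thus lay lower with TNF-α. The other 3 basal markers, Cd14 and Dcn lay higher. Whether the make-up of the cultures had a part in the members' differences was not tested. Exons of 20 of the 50 members overlap another gene, and for the 28 compared members without such an overlap the median log2 ratio was also 0.07, with 4 called higher and 0 lower.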

How the data were processed

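RNA-seq libraries of 1 control and 1 TNF-α culture were analysed. The authors deposited raw read counts per gene with exon coordinates and summed exon length, a column of another kind that served to scale levels. Per the labels the build is GRCm38 (mm10). The aligner, counting tool, annotation and strand setting are not given in the sources used here. In the control 618 genes had 1 count and 2172 had 2, and with TNF-α 645 and 2350, so read ends may have been counted singly. Coordinates of 39 of the 50 members equal those of GENCODE M21.

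Library sizes were scaled with edgeR 4.0.16 (TMM, genes with at least 10 counts, R 4.3.3); the effective size with TNF-α was 1.20 times that of the control. Ratios used a prior count of 2. With 1 library per group no residual degrees of freedom were left for edgeR's quasi-likelihood test, and called means past 2-fold. A count of 10 is 0.224 CPM in the control and 0.187 CPM with TNF-α. TPM used the deposited length. Calls and intervals were tested on simulated data. These held counting error alone, so they cannot speak to the spread between cultures. The members and lists were chosen with earlier results of these data known. Full values were set for Cdk1, Ccnb1, members past 2-fold, those past 1.5-fold where counts reached 200, and both extremes of each role group and list, with list genes past 2-fold at 200 counts or more. Other genes named were chosen after their values were seen, as were the letters TTTAAA. Alternatives were total counts, DESeq2 1.42.0 size factors, upper quartile, 3 filters, prior counts of 0.5 and 5, halved counts, thinning, a lowess on length (span 0.3) and 1.5-fold. Intervals used scipy 1.17.1 and the lowess statsmodels 0.14.6 (Python 3.11.15).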

Additional observations from a re-analysis of the deposited data

How the results depend on the processing

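No paired analysis was possible because only 1 library stood for either condition, which also left no replicate to omit. The number of members more than 2-fold higher was 6, and 5 or 6 under the 11 alternatives that keep the 2-fold threshold, being 5 with at least 200 counts (Cdkn3 not compared) and 5 after the lowess on gene length (Cdkn3 at 0.94). With 1.5-fold it was 11, because the threshold is lower. The number more than 2-fold lower was 2, and 1 with at least 200 counts, with at least 1 CPM, with a prior count of 5 and with halved counts, since Ccna1 rests on 13 counts in all. It was 3 with a prior count of 0.5, after thinning, and with 1.5-fold. The median of the members stayed between 0.06 and 0.11 over the 11 alternatives. Cdk1 stayed between 1.31 and 1.33, Ccnb1 between 1.17 and 1.22, Cdkn2a between 1.98 and 2.07, and Cdk18 between -1.78 and -1.72. The Cip/Kip median was -0.29 with at least 200 counts, where Cdkn1c drops out. Depth limits Ccna1 and Cdk15, and Cdkn3, Cdk6, Ccnd2, Ccnb2, Ccne1 and Ccnf cannot be placed on either side of 2-fold by their counting intervals. With 1 library per group, culture and treatment cannot be told apart.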
